A study of Drosophila melanogaster with 18 samples.

Results

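The genes described here carry vesicles between the endoplasmic reticulum (ER) and the Golgi apparatus in Drosophila Schneider 2 (S2) cells, a cultured cell line of embryonic origin with blood cell traits. They were chosen by CG gene number and role: the COPII coat with Tango1, the COPI coat with its GTPase Arf1 (Arf79F), the p24 cargo receptors, the ER-Golgi SNAREs with their partner Slh, the Golgi tethers with the COG complex, and a last set of Rab1, KdelR, ergic53 and Surf4. The rule names 46 genes, and 41 of them have a probe, among 7257 probes for 6980 named genes in all. A probe's number was read as the CG number of its gene, and the platform annotation names other genes for the 25 members to which it gives a symbol. No probe was used here for bai, loj, p24-2, Cog3 and Cog7. Cog2 and p24-1 have 1 value each and could not be tested, and 25 of the 41 have a value on every array.

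COPII vesicles bud from the ER with newly made proteins, and COPI vesicles return escaped ER proteins and receptors from the Golgi. Receptors in the vesicle membrane select cargo, Rab1 and the tethers capture the arriving vesicle, and SNAREs fuse it with its target. In the unfolded protein response the ER membrane kinase and nuclease IRE1 senses misfolded proteins and splices the XBP-1 mRNA, which then encodes an active transcription factor whose targets in several animals include genes of this route.

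RNA was measured on 18 spotted arrays in 6 groups of 3, labelled A, B and C. Control S2 cells went through mock RNAi with no double-stranded RNA. The other cells were given about 15 µg/ml of double-stranded RNA against XBP-1 or against IRE1. Each of these was measured untreated and after exposure to 2 mM DTT for 7.4 hours; DTT is a reducing agent that breaks the disulphide bonds of folding proteins. Control cells thus lacked double-stranded RNA as well as the knockdown. Every array set Cy5-labelled sample against 1 Cy3-labelled reference made from embryos and from S2 cells in both DTT states, and a level below is the log2 ratio of sample to reference. This ratio shows how a gene differs between groups and not how abundant its mRNA is. The labels do not say that the letters stand for separate cultures, so the tests measure the spread between these arrays.

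An array held 3755 to 6696 values, and the fewest were on array A of the group labelled IRE1 RNAi with DTT, which lacked 9 of the 41 members. Within groups, array pairs had r of 0.639 to 0.876 over probes. Ratios of the Ire1 probe were 0.13 to 2.55 on the 6 arrays labelled IRE1 RNAi, called IRE1-labelled arrays from here on, and -1.08 to 0.41 on the other 12. The knockdown thus does not show at this probe, and the name is a label. Without DTT the Xbp1 probes differed from control by -0.38 and -0.41 under XBP-1 RNAi, neither past the threshold. Hsc70-3, the ER chaperone BiP, rose with DTT by 2.92 in control cells, by 1.24 under XBP-1 RNAi and by 1.41 on the IRE1-labelled arrays. Of 15 marker genes of embryonic tissues that S2 cells should lack, 8 were measured and 7 of them lay below the median probe (median ratio -1.08, all probes -0.25). Of 11 blood cell markers 8 were measured and 7 of these lay below it too (median ratio -0.70), so the ratios do not separate the lists.

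Under DTT the vesicle transport genes of control cells shifted upwards, and as deposited no member rose when XBP-1 or IRE1 was the named target of RNAi. After centring 1 and 3 of 38 rose there, against 18.3% and 11.1% of all probes, so both shares were below the background. In control cells 11 of 39 tested members rose (28.2%) and 0 fell, against 7.16% of all tested probes that rose and 4.5% that fell. Under XBP-1 RNAi 0 of 38 rose and 7 fell (18.4%), against 4.51% and 11.3% of all probes. Among IRE1-labelled arrays 0 of 38 rose and 2 fell (5.26%), against 3.43% and 10.2% of all probes, so the share that fell there was below the background. The median change of the members was 0.75 in control cells (all probes 0.15), -0.43 under XBP-1 RNAi (all probes -0.08) and -0.36 on the IRE1-labelled arrays (all probes -0.24). These calls are those of limma with a Benjamini-Hochberg adjusted p under 0.05 over all probes, 2-sided, and errors below are standard errors from that fit with 3 arrays a group. In RNA from whole cultures, fewer cells with a transcript and less of it per cell cannot be told apart.

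The position of all probes moved between arrays. Centring each array on its median took the median change of all probes from 0.15 to 0.02 in control cells, from -0.08 to 0.20 under XBP-1 RNAi and from -0.24 to 0.12 on the IRE1-labelled arrays. The median change of the members then stood at 0.62, -0.17 and 0.03, so in the last of these arms its sign depends on the scaling. Of the members, 33 of 39 had an estimate above 0 in control cells as deposited, against 61.2% of all probes. Of 38, 9 did under XBP-1 RNAi (15 after centring; 45.4% of all probes as deposited) and 12 on the IRE1-labelled arrays (20 after centring; 31.9%). Higher calls over all probes were 61.4%, 28.6% and 25.2% of calls in the 3 arms, and 48.3%, 54.8% and 50.1% after centring.

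Relative to the median probe of each array, the 25 members measured on every array had a median level of -0.07 to 0.05 on the 3 control arrays without DTT and 0.55 to 0.69 on the 3 with DTT. Under XBP-1 RNAi this level was 0.00 to 0.07 without DTT and -0.54 to -0.13 with DTT. In the IRE1-labelled arm it was -0.27 to 0.08 without DTT and -0.37 to 0.09 with DTT. The control groups did not overlap, the XBP-1 RNAi groups did not overlap in the opposite order, and the groups labelled IRE1 RNAi overlapped. Gene by gene, 14 of 36 fully measured members (38.9%) had every control array with DTT above every one without, against 15.6% of probes. The reverse held for 0, against 8.81%. Under XBP-1 RNAi 10 of 32 were fully lower with DTT (31.25%, probes 20.8%) and 3 fully higher (probes 11.3%). On the IRE1-labelled arrays 6 of 31 were fully lower (19.4%, below the 27.5% of probes) and 1 fully higher (probes 7.21%).

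**Figure D1:**
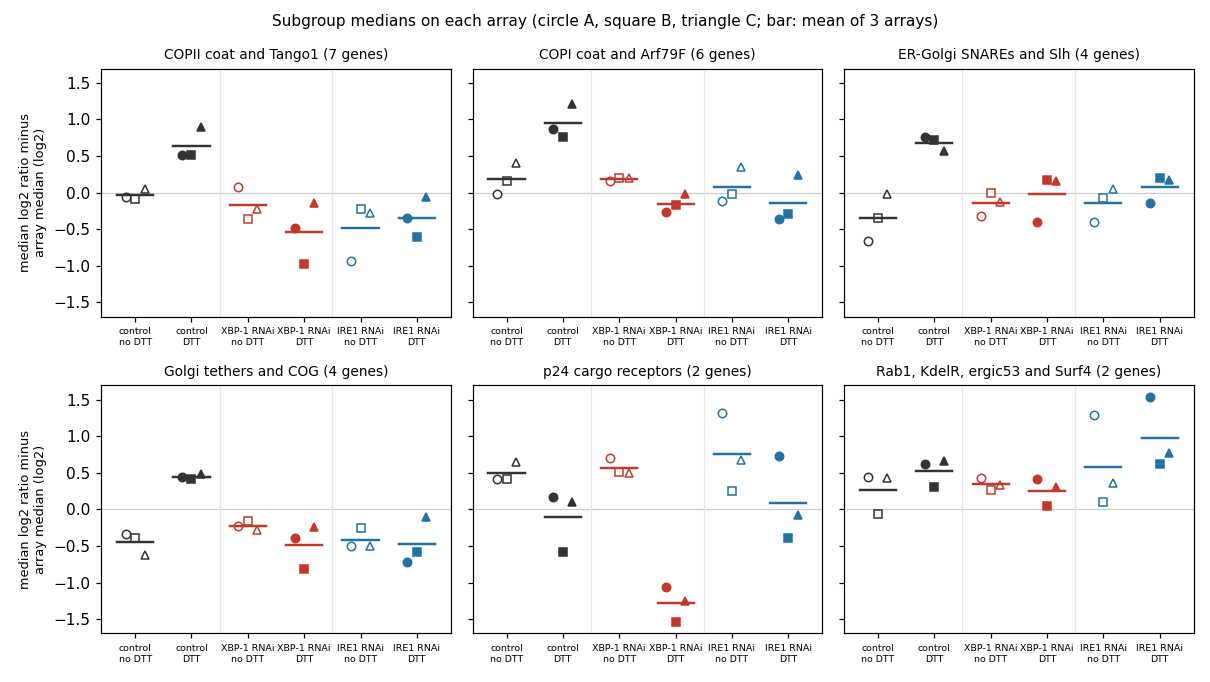
Median log2 ratio of each subgroup on each array, minus the median of all probes of that array (vertical axis, log2), for the 6 groups; only members with a value on all 18 arrays enter (their number is in each title), open symbols are arrays without DTT, filled symbols arrays with DTT, and bars are means of 3 arrays. In control cells COPII went from -0.03 to 0.64, COPI from 0.18 to 0.95, the SNAREs from -0.34 to 0.68 and the tethers from -0.45 to 0.45 with DTT. The p24 receptors, of which only 2 genes enter, went from 0.49 to -0.11. As deposited, the 3 p24 genes tested had a median change of -0.03 in control cells, and 0 passed.

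The COPII coat forms at ER exit sites. The GTPase Sar1 recruits the inner layer of Sec23 and the Sec24 cargo adaptors, Sec13 and Sec31 build the outer cage, and Sec16 and Tango1 organise the exit site. Of 8 COPII members 2 rose in control cells, the adaptors Sec24CD and Sec24AB, and the subgroup's median change was 0.88 (range -0.29 to 1.46). Sec24CD (CG10882, probe 10882) had log2 ratios of -0.14, -1.06 and -0.64 in control replicates A, B and C without DTT and of 1.29, 0.34 and 0.90 with DTT. It had -0.47, -1.16 and -0.38 without DTT and -0.84, -0.83 and -0.60 with DTT under XBP-1 RNAi, and -1.31, -0.82 and -0.83 without DTT and -1.05, -0.76 and -0.57 with DTT on the IRE1-labelled arrays. Only the control arrays with DTT stood above 0, and none of them overlapped another group. Sec24CD rose by 1.46 ± 0.37 in control cells (2.74-fold, adjusted p = 0.00528, higher in 3 of 3 letter pairs), and its changes in the RNAi arms were -0.09 and 0.19.

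Sec24AB (CG1472) read -0.02, -1.87 and -1.90 in control cells without DTT and 0.58, -0.19 and 0.07 with DTT. Under XBP-1 RNAi it read -1.16, -1.01 and -1.43 without DTT and -0.64, -0.84 and -0.61 with DTT. Among IRE1-labelled arrays it read -1.51, -0.60 and -1.88 without DTT and -0.90, -0.58 and -1.16 with DTT. Replicate A of control without DTT lay far above replicates B and C, so the control groups overlapped, although each array with DTT was above the one of its letter. The rise was 1.42 ± 0.41 in control cells (adjusted p = 0.0171), with 0.50 under XBP-1 RNAi and 0.45 on the IRE1-labelled arrays. Sec24AB, Tango1 and Arf1 were the coat genes whose estimate was above 0 in all 3 arms.

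Sec23 (CG1250), the partner of both adaptors, had 0.02, -0.49 and 0.29 in control cells without DTT and 1.25, 0.53 and 0.90 with DTT. Its ratios under XBP-1 RNAi were 0.46, -0.34 and 0.31 without DTT and -1.56, -0.93 and -0.86 with DTT. In the IRE1-labelled arm they were -0.90, -0.77 and -0.14 without DTT and -2.60, -0.99 and -0.72 with DTT, where replicate A was far below the other replicates. Every control array with DTT was above, and every XBP-1 RNAi array with DTT below, the arrays without DTT of the same arm. Sec23 changed by 0.95 ± 0.41 in control cells (adjusted p = 0.151; 0.0203 with the letter as a block) and fell by 1.26 ± 0.41 under XBP-1 RNAi (adjusted p = 0.0293), a call that centring (-1.003) and quantile normalization (-1.14) ended. The cage genes Sec31 and Sec13 changed in control cells by 0.98 and 0.73, Tango1 by 0.80 and Sec16 by 0.54, none past the threshold. Sar1, at -0.29 in control cells, was the exception in the coat with an estimate below 0.

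The COPI coat is a single heptamer, coatomer, that Arf1 recruits to Golgi membranes. All 8 COPI members had an estimate above 0 in control cells, with a median of 0.92 (0.48 to 1.56), and 3 rose: betaCOP, deltaCOP and gammaCOP, which belong to the inner, cargo-binding layer. betaCOP (CG6223, probe 6223) had -0.11, -0.62 and 0.04 in control cells without DTT and 1.52, 0.88 and 1.59 with DTT. It had 0.61 and 0.03 under XBP-1 RNAi without DTT (replicate C was empty) and -0.58, -0.15 and -0.49 with DTT. Ratios under the IRE1 label were -0.47, -0.09 and 0.08 without DTT and -1.41, -0.37 and -0.22 with DTT. The 3 control arrays with DTT were the highest of all arrays. In control cells betaCOP rose by 1.56 ± 0.38 (2.95-fold, adjusted p = 0.00355, 3 of 3 pairs), against -0.73 under XBP-1 RNAi and -0.51 on the IRE1-labelled arrays.

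deltaCOP (CG14813) had 0.59, -0.25 and 0.14 in control cells without DTT and 1.93, 0.67 and 1.53 with DTT. It had 1.11, 0.16 and 0.53 under XBP-1 RNAi without DTT and 0.00, -0.27 and -0.50 with DTT. IRE1-labelled arrays read 0.79, -0.01 and 0.35 without DTT and -0.01, -0.38 and -0.27 with DTT. Control groups did not overlap, and neither did the XBP-1 RNAi groups in the opposite order. The changes were 1.22 ± 0.38 (adjusted p = 0.029), -0.86 ± 0.38 (adjusted p = 0.134; 0.0341 with the letter as a block) and -0.60 ± 0.38 in the 3 arms.

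gammaCOP (CG1528) gave -0.14, -0.25 and -0.14 in control cells without DTT, close to each other, and 1.22, 0.67 and 1.20 with DTT. Its XBP-1 RNAi arrays gave 0.03, -0.02 and 0.42 without DTT and -1.41, 0.20 and -0.47 with DTT. Those labelled IRE1 RNAi gave -1.04, -0.29 and 0.17 without DTT and -1.27, -0.50 and -0.48 with DTT. Both RNAi arms spread widely and their groups overlapped, unlike control. The rise in control cells was 1.21 ± 0.40 (adjusted p = 0.0372), against -0.70 and -0.36.

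epsilonCOP (CG9543), a subunit of the outer coatomer layer, was the 1 coat gene that fell in both RNAi arms. In control cells it had 0.60, -0.37 and 0.45 without DTT and 1.43, -0.04 and 0.74 with DTT. Under XBP-1 RNAi it had 1.44, 0.56 and 0.95 without DTT and -0.34, -0.09 and -0.93 with DTT, and on the IRE1-labelled arrays 1.38, 0.58 and 0.41 without DTT and -0.65, -0.37 and -0.62 with DTT. In each RNAi arm every array with DTT was below every array without, as for 20.8% and 27.5% of fully measured probes. epsilonCOP fell by 1.44 ± 0.40 under XBP-1 RNAi (2.71-fold lower, adjusted p = 0.00874) and by 1.34 ± 0.40 on the IRE1-labelled arrays (2.53-fold lower, adjusted p = 0.0178), while control cells showed 0.48 ± 0.40. The second call ended without array A of that group without DTT (-1.04, adjusted p = 0.157) or with DTT (-1.28, adjusted p = 0.056), and the first without A of XBP-1 RNAi without DTT or C with DTT. zetaCOP, a small inner subunit, had like estimates of -1.20, -1.16 and 0.62, none past the threshold (adjusted p = 0.0925, 0.0717 and 0.459). beta'COP changed by 1.08 in control cells (adjusted p = 0.0547), alphaCOP by 0.75 and Arf1 by 0.72, and the Arf1 estimate stayed above 0 in the RNAi arms (0.41 and 0.45).

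**Figure D2:**
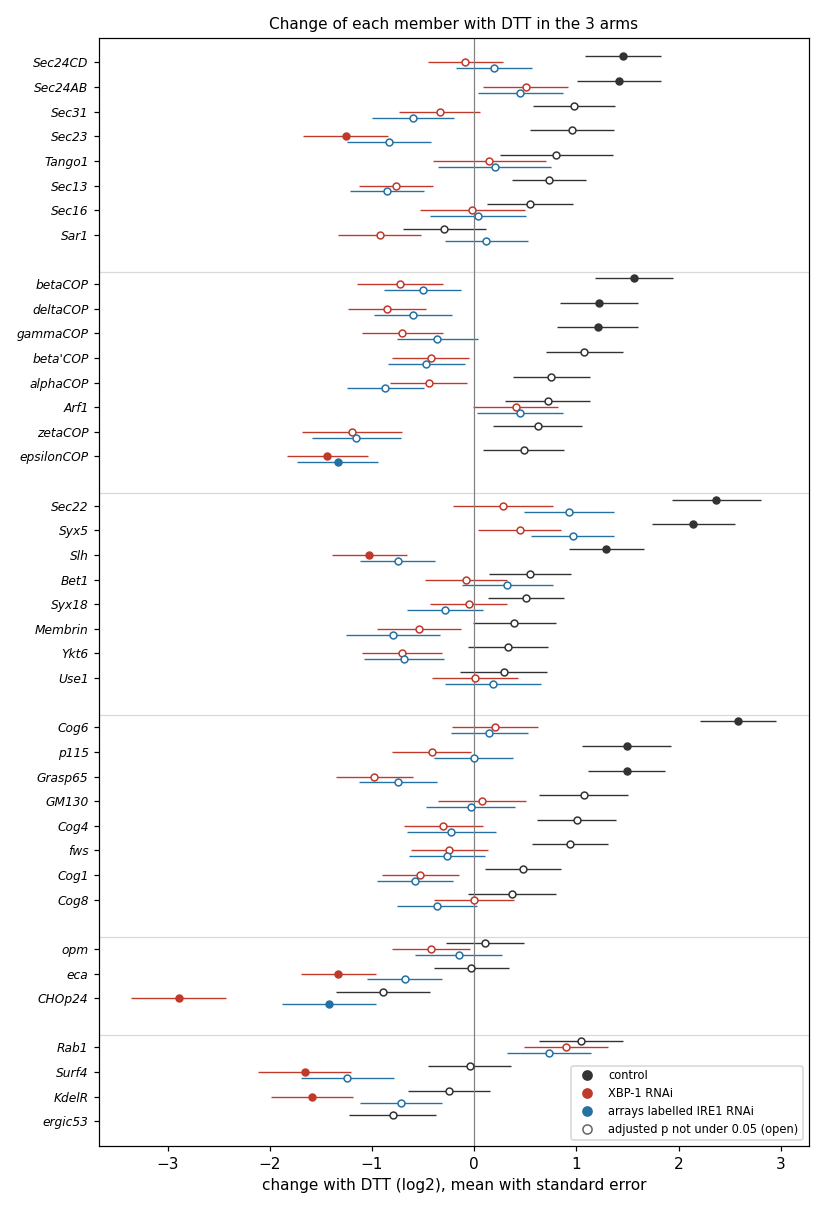
Change of each of the 39 tested members with DTT (horizontal axis, log2, with standard error) in control cells, under XBP-1 RNAi and on the IRE1-labelled arrays; filled points have an adjusted p under 0.05 in limma, and lines part the subgroups. In control cells 11 points are filled, all above 0, and in the RNAi arms 7 and 2 are filled, all below 0.

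SNAREs are the membrane proteins that fuse vesicle and target. Sec22, Syx5, Bet1 and Membrin form the complex between ER and Golgi, Ykt6 acts around the Golgi, Use1 and Syx18 act at the ER in return traffic, and Slh (the Sly1 homologue) binds Syx5. Of these 8 members 3 rose in control cells, Sec22, Syx5 and Slh, while the other 5 had estimates of 0.29 to 0.54 and did not pass. Sec22 (CG7359) had -0.23, -1.79 and -1.45 in control cells without DTT and 1.94, 0.54 and 1.16 with DTT. It had -0.61 and -1.19 under XBP-1 RNAi without DTT (replicate B was empty) and -0.60, -0.65 and -0.60 with DTT. With the IRE1 label, arrays read -0.17, -1.43 and -1.96 without DTT and 0.24, -0.73 and -0.29 with DTT. The control arrays with DTT were above all other arrays, and the groups of the RNAi arms overlapped. Sec22 rose by 2.37 ± 0.44 in control cells (5.17-fold, adjusted p = 0.000113, 3 of 3 pairs), with 0.28 ± 0.49 under XBP-1 RNAi and 0.93 ± 0.44 on the IRE1-labelled arrays (adjusted p = 0.172; 0.0236 after centring and 0.0231 with the letter as a block).

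Syx5 (CG4214), the syntaxin of the Golgi target membrane, had -0.50, -1.24 and -0.35 in control cells without DTT and 1.95, 0.75 and 1.64 with DTT. Its ratios under XBP-1 RNAi were -0.25, -0.88 and 0.06 without DTT and -0.54, 0.22 and 0.59 with DTT. Those on the IRE1-labelled arrays were -0.59, -1.11 and -0.08 without DTT and 0.02, 0.20 and 0.89 with DTT, which did not overlap. Control groups were further apart, with all arrays without DTT below 0 and all with DTT above 0. Syx5 rose by 2.14 ± 0.41 in control cells (4.42-fold, adjusted p = 0.000161), with 0.45 ± 0.41 under XBP-1 RNAi and 0.96 ± 0.41 on the IRE1-labelled arrays (adjusted p = 0.116; 0.0172 after centring, 0.0223 with quantile normalization and 0.0173 with the letter as a block).

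Slh (CG3539) was the 1 member past the threshold in opposite directions in different arms. Its ratios in control cells were -0.41, -0.69 and -0.28 without DTT and 1.22, 0.47 and 0.81 with DTT. Under XBP-1 RNAi they were 0.03, -0.52 and -0.01 without DTT and -1.38, -0.96 and -1.24 with DTT. Ratios under the IRE1 label were -0.48, -0.30 and -0.26 without DTT and -1.70, -0.97 and -0.62 with DTT. In no arm did the groups overlap, and control alone was higher with DTT. Slh rose by 1.29 ± 0.36 in control cells (adjusted p = 0.0127) and fell by 1.03 ± 0.36 under XBP-1 RNAi (adjusted p = 0.0469), a call that ended without the filter on missing values, with a trend in the variance prior and with the fit limited to that arm (-1.03 in each). On the IRE1-labelled arrays it changed by -0.75 ± 0.36 (adjusted p = 0.189).

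Tethers bridge a vesicle and the Golgi before fusion. p115 is a coiled-coil tether of Rab1, GM130 and Grasp65 hold the cis-Golgi matrix, and the COG complex tethers vesicles that move back through the Golgi stack. Cog6, p115 and Grasp65 rose in control cells, and all 8 tested members of the subgroup had an estimate above 0, with a median of 1.04 (0.37 to 2.58). Cog6 (CG1968, probe 1968) had -0.85, -1.48 and -0.95 in control cells without DTT and 1.76, 1.14 and 1.56 with DTT. It had -0.36, -1.31 and -0.84 under XBP-1 RNAi without DTT and, with replicate A empty, -0.51 and -0.76 with DTT. IRE1-labelled arrays had -0.37, -0.88 and -1.37 without DTT and -0.94, -0.84 and -0.40 with DTT. All control arrays with DTT were above 0 and all others below 0. Cog6 had the largest change among the 39 tested members in control cells, 2.58 ± 0.38 (5.98-fold, adjusted p = 2.33e-06), against 0.20 under XBP-1 RNAi and 0.15 on the IRE1-labelled arrays.

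Grasp65 (CG7809) gave -0.11, -0.76 and -0.39 in control cells without DTT and 1.49, 0.46 and 1.26 with DTT. Under XBP-1 RNAi it gave 0.39, -0.44 and 0.27 without DTT and -0.87, -0.86 and -0.99 with DTT. With the IRE1 label, arrays gave -0.38, -0.18 and -0.09 without DTT and -1.57, -0.85 and -0.47 with DTT. Its groups did not overlap in any arm, with DTT arrays above in control and below in both RNAi arms. Grasp65 rose by 1.49 ± 0.38 in control cells (2.81-fold, adjusted p = 0.00504), and changed by -0.98 ± 0.38 under XBP-1 RNAi (adjusted p = 0.0716; 0.0376 after centring and 0.0127 with the letter as a block) and by -0.75 ± 0.38 on the IRE1-labelled arrays (adjusted p = 0.212).

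p115 (CG1422) had -0.37 and -0.77 in control cells without DTT, where replicate C was empty, and 1.21, 0.61 and 0.94 with DTT. Its ratios under XBP-1 RNAi were -0.15, -0.56 and -0.01 without DTT and -1.20, -0.15 and -0.62 with DTT. Ratios under the IRE1 label were -1.32, -0.69 and -0.47 without DTT and -1.58, -0.56 and -0.36 with DTT, nearly the same range. p115 rose by 1.49 ± 0.43 in control cells (adjusted p = 0.0169), with -0.42 and -0.01 in the RNAi arms. GM130, Cog4 and fws (Cog5) changed by 1.07, 1.00 and 0.94 in control cells (adjusted p = 0.113, 0.0908 and 0.104). All 3 passed with the letter as a block (0.00722, 0.0132 and 0.0227), and Cog4 and fws after centring. Cog1 (0.48) and Cog8 (0.37) did not pass as deposited.

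The cargo receptors are the p24 proteins, which travel in both coats, KdelR, which returns ER residents that carry the retrieval signal, the lectin ergic53 and Surf4, a cargo receptor in mammals, and they were set together after their values were seen. Of 6 tested in control cells 0 passed in either direction, with estimates of -0.90 to 0.10 and a median of -0.15. The other 33 members had a median of 0.95 and contained all 11 that rose. Under XBP-1 RNAi 4 of 5 cargo receptors fell, with a median of -1.59, against 3 of 33 other members, with a median of -0.34, and 11.3% of all probes. The counts describe genes chosen by their role and then regrouped, and the contrast between the sets was not tested.

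CHOp24 (CG3564, probe 3564), a p24 protein, had 0.84, 0.03 and 0.56 in control cells without DTT and 0.38, -1.35 and -0.29 with DTT. Under XBP-1 RNAi it had 1.47, 0.48 and 0.98 without DTT and -1.33, -1.98 and -2.44 with DTT. IRE1-labelled arrays had 2.33, 0.42 and 0.74 without DTT and 0.68, -0.67 and -0.79 with DTT. Each array with DTT lay below the one of its letter in all 3 arms, and the groups were fully apart under XBP-1 RNAi alone. CHOp24 fell by 2.89 ± 0.46 under XBP-1 RNAi (7.43-fold lower, adjusted p = 1.21e-05) and by 1.42 ± 0.46 on the IRE1-labelled arrays (adjusted p = 0.0312), a call that ended with centring (-1.03), without array A of the group without DTT (-0.84, adjusted p = 0.355) and without B (-1.22) or C (-1.16) of the group with DTT. In control cells it changed by -0.90 ± 0.46 (adjusted p = 0.262; 0.025 with quantile normalization and 0.0322 with the letter as a block).

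KdelR (CG5183) read 0.99, 0.17 and 0.81 in control cells without DTT and 0.95, -0.34 and 0.61 with DTT. Its XBP-1 RNAi arrays read 1.18, 0.31 and 1.02 without DTT and -0.41, -0.91 and -0.94 with DTT. With the IRE1 label, arrays read 1.56, 0.36 and 0.64 without DTT and 0.64, -0.09 and -0.15 with DTT. Groups overlapped in control and on the IRE1-labelled arrays, and were apart under XBP-1 RNAi. KdelR fell by 1.59 ± 0.40 under XBP-1 RNAi (3.01-fold lower, adjusted p = 0.0038), with -0.25 in control cells and -0.72 on the IRE1-labelled arrays.

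Surf4 (CG6202) had 1.02, -0.25 and 0.03 in control cells without DTT and 0.54, -0.29 and 0.41 with DTT. It had 0.86, 0.07 and 0.63 under XBP-1 RNAi without DTT and -1.21 and -1.07 with DTT, and 1.29, -0.12 and 0.14 without DTT and -1.02 and -0.59 with DTT on the IRE1-labelled arrays, replicate A being empty in both groups with DTT. The groups of both RNAi arms were apart. Surf4 fell by 1.66 ± 0.45 under XBP-1 RNAi (3.16-fold lower, adjusted p = 0.00799, lower in 2 of 2 pairs), with -0.05 in control cells and -1.24 on the IRE1-labelled arrays (adjusted p = 0.0631; 0.0458 with the letter as a block).

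eca (CG33104), a p24 protein with the close relative p24-2, had 0.49, -0.04 and 0.10 in control cells without DTT and 0.69, -0.61 and 0.38 with DTT. Under XBP-1 RNAi it had 0.62, 0.08 and 0.38 without DTT and -1.08, -0.82 and -1.01 with DTT, and on the IRE1-labelled arrays 0.39, -0.03 and 0.18 without DTT and -0.41, -0.41 and -0.68 with DTT. The groups of both RNAi arms were apart and those of control overlapped. eca fell by 1.33 ± 0.37 under XBP-1 RNAi (2.51-fold lower, adjusted p = 0.00825), with -0.03 in control cells and -0.68 on the IRE1-labelled arrays, and binding of p24-2 mRNA to its probe was not tested. The p24 protein opm had estimates of 0.10, -0.42 and -0.15, none past the threshold. ergic53 could be tested for DTT in control cells alone, where it read 0.16, 0.01 and 0.16 without DTT and, with replicate A empty, -0.96 and -0.42 with DTT (-0.80 ± 0.43, adjusted p = 0.297).

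Rab1 (CG3320), the GTPase that recruits tethers to arriving COPII vesicles, had an estimate above 0 in all 3 arms. It had 0.40, -1.14 and -0.60 in control cells without DTT and 1.03, 0.15 and 0.61 with DTT. Under XBP-1 RNAi it had 0.36, -0.23 and 0.01 without DTT and 0.94, 1.29 and 0.60 with DTT, and on the IRE1-labelled arrays 1.09, -0.29 and -0.35 without DTT and 1.24, 1.02 and 0.38 with DTT. In each arm every array with DTT was above the one of its letter. Its changes of 1.04 ± 0.41, 0.90 ± 0.41 and 0.73 ± 0.41 did not pass as deposited (adjusted p = 0.104, 0.149 and 0.291). After centring they were 0.91, 1.15 and 1.12, and all 3 passed (adjusted p = 0.0329, 0.00706 and 0.0113).

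**Figure D3:**
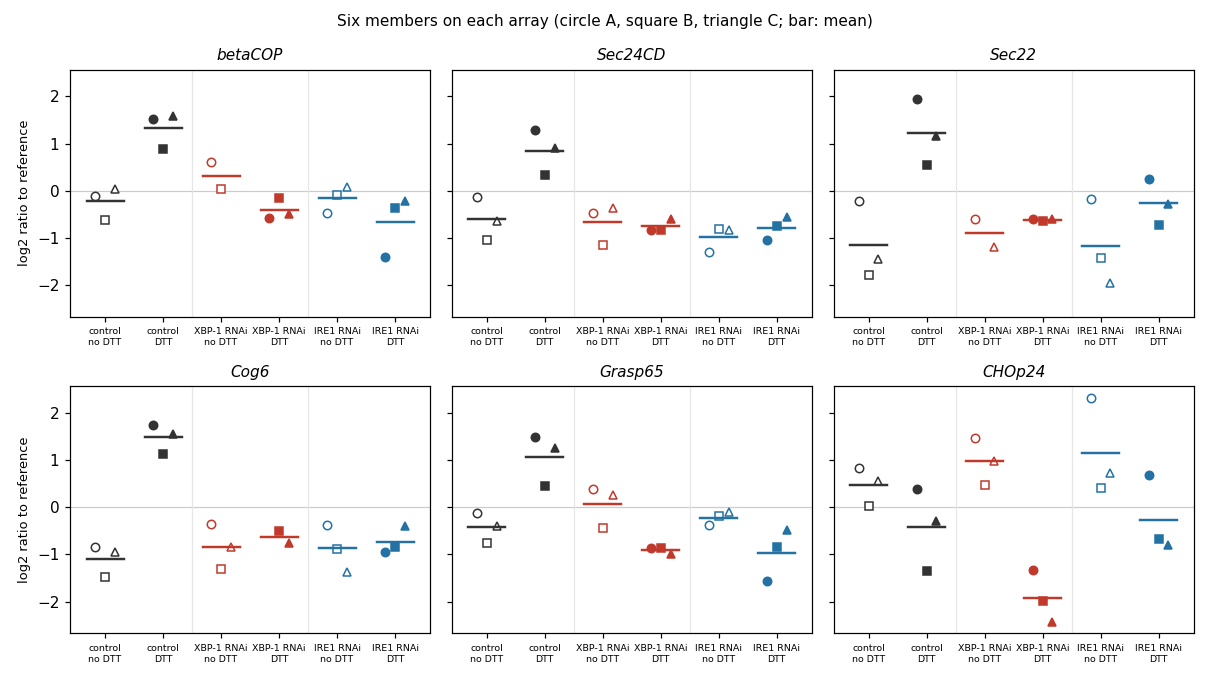
Log2 ratio to the reference (vertical axis) on each array for 6 members in the 6 groups; open symbols are arrays without DTT, filled symbols arrays with DTT, and bars are group means. betaCOP, Sec24CD, Sec22, Cog6 and Grasp65 have their 3 highest arrays in control with DTT, and the 2 lowest CHOp24 values are in XBP-1 RNAi with DTT (-2.44 and -1.98).

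Single arrays carried part of these counts. Here and below, the shares of all probes called with 1 array left out are not given. An excess over the background cannot be read from those counts. The 11 rises in control cells became 5 without replicate B of control without DTT, 6 without replicate A of control with DTT and 7 without replicate C of control with DTT, and 16 without replicate A of control without DTT. The calls of Sec24CD, Sec24AB, deltaCOP, gammaCOP, Slh and p115 each ended without at least 1 control array (estimates of 0.94 to 1.48), while those of Cog6, Sec22, Syx5, betaCOP and Grasp65 stood in every fit that was run and tested them. The 7 falls under XBP-1 RNAi became 3 without array A of XBP-1 RNAi without DTT and 4 without array C of XBP-1 RNAi with DTT. There CHOp24, KdelR and Surf4 stood in every fit that tested them, and the calls of Sec23, eca, Slh and epsilonCOP ended without at least 1 array (estimates of -1.21 to -0.93). The 2 falls on the IRE1-labelled arrays became 4 without replicate B or C of the group without DTT and 1 without replicate B of the group with DTT. Without replicate A of the group without DTT 0 members fell and 1 rose. With the letter as a block, 18 members rose in control cells (11.6% of all probes) and 1 fell (7.92%). With XBP-1 RNAi 1 rose (8.66%) and 10 fell (17.6%), and on the IRE1-labelled arrays 2 rose (5.26%) and 7 fell (16.8%), in a fit where limma gave every probe 1 common variance.

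The next question was whether the effect of DTT itself differed between arms, which was tested as a difference of differences. With XBP-1 RNAi the effect was smaller than in control cells for 4 of 38 members (10.5%), against 0.62% of all tested probes, and larger for 0, as for 0.0% of all probes. The 4 were Grasp65 (-2.47 ± 0.53, adjusted p = 0.02), Cog6 (-2.38 ± 0.56, adjusted p = 0.0332), Slh (-2.32 ± 0.52, adjusted p = 0.0224) and betaCOP (-2.29 ± 0.57, adjusted p = 0.0411). They come from the tethers, the SNARE set and COPI. All 4 rose in control cells, but that rise is part of the difference and is not separate evidence. All 38 estimates were below 0 (median -1.31), against 71.1% of all probes (median -0.28), and after centring 35 of 38 were (median -0.92, all probes 0.12). Sec23 (-2.21), Sec22 (-2.09), deltaCOP (-2.07) and CHOp24 (-1.997) had estimates almost as large and did not pass in this fit. With the letter as a block more members passed, as given in the last part (3.03% of all probes lower). In this contrast 17 of 18 same-letter pairs had r over 0.1. Centring and quantile normalization each gave 6 members (1.09% and 1.71% of all probes), with deltaCOP and epsilonCOP as additions. Each of the 4 calls ended without any of at least 5 single arrays. No member passed without replicate B of control without DTT, without either A or C among the control arrays with DTT, or without A or C of XBP-1 RNAi without DTT. Without array C of XBP-1 RNAi with DTT 1 passed, and without its replicate A or B, or C of control without DTT, 2 did. Without replicate A of control without DTT 8 passed, and without B of control with DTT 7 did.

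On the IRE1-labelled arrays the effect of DTT was smaller than in control cells for 1 of 38 members (2.63%), against 0.0358% of all probes, and larger for 0, against 0.0536%. It was Cog6, with a difference of -2.43 ± 0.53 (adjusted p = 0.0459). Of the 38 estimates 37 were below 0 (median -1.19), against 79.9% of all probes (median -0.44), and as deposited Sar1 was the exception at 0.41. After centring 30 were below 0 (median -0.67, all probes 0.04), 2 of 5 cargo receptors and 28 of 33 other members. With the letter as a block 13 members passed (2.16% of all probes), Grasp65 (-2.24, adjusted p = 0.000503), betaCOP (-2.07) and Slh (-2.04) among them. The Cog6 call ended without the filter on missing values and without any of 9 single arrays (-2.61 to -2.18). Between 0 and 4 members passed when 1 array was left out, 4 without array C of the IRE1-labelled arrays with DTT and 2 without replicate A of control without DTT. The differences of both RNAi arms from control rest on the same 6 control arrays.

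Between the RNAi arms 0 of 38 members differed in their effect of DTT in limma, with 1 member at an unadjusted p under 0.05, against 0.0% of all probes called and 67 probes at that p. That member was CHOp24, whose difference of 1.47 ± 0.65 had an adjusted p of 0.999. All 5 cargo receptors had a higher estimate on the IRE1-labelled arrays than under XBP-1 RNAi (0.27 to 1.47). So did 20 of the 33 other members, Sar1 (1.04) among them, and 29.2% of all probes. After centring 26 of the 33 did. The estimates of the 33 other members ran from -0.43 to 1.04 with a median of 0.05. These values do not show that the arms act alike.

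**Figure D4:**
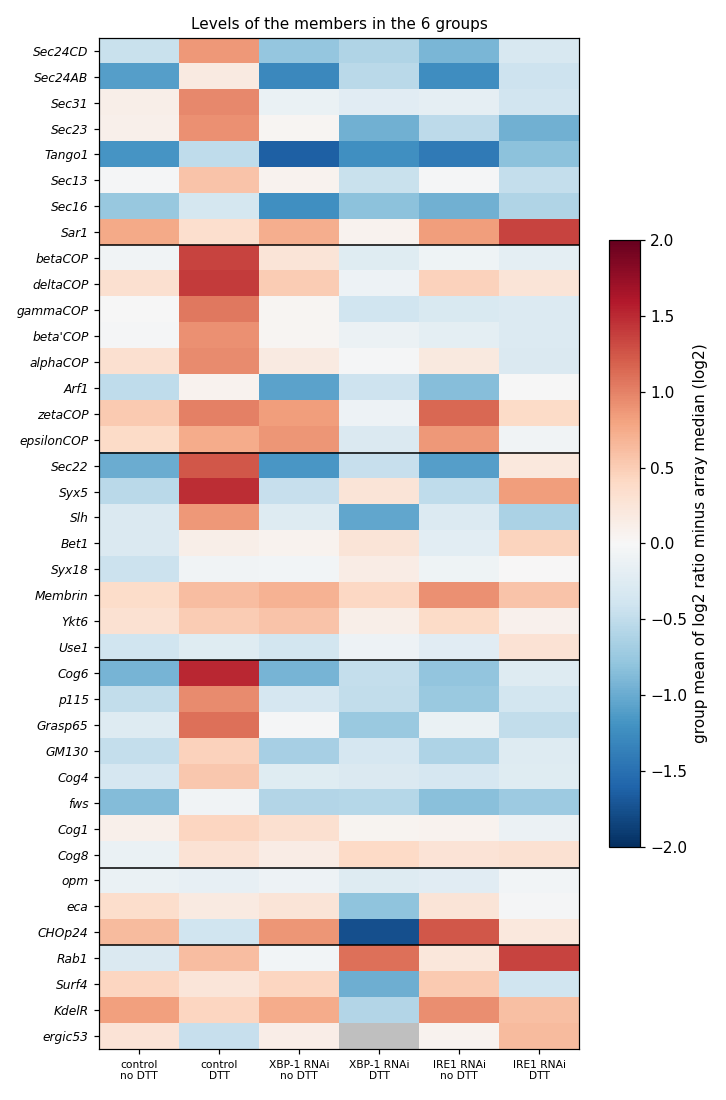
Mean log2 ratio of each of the 39 members in each group, minus the array median (colour, log2), with members in rows by subgroup; grey is a group with no value (ergic53 under XBP-1 RNAi with DTT), and ergic53 has 1 value in each group labelled IRE1 RNAi. Sec24CD, betaCOP, deltaCOP, gammaCOP, Sec22, Syx5, Slh, Cog6, p115 and Grasp65 are each highest in control with DTT, and CHOp24 is bluest in XBP-1 RNAi with DTT (-1.76).

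Without DTT no member passed the limma test between RNAi and control. Under XBP-1 RNAi 0 of 39 passed against control, with 0 at an unadjusted p under 0.05, and 0.0% of all probes passed, with 75 at that p. Their median was 0.32 against 0.22 for all probes, and 0.06 against -0.06 after centring. In the IRE1-labelled arm 0 of 38 passed, with 0 at an unadjusted p under 0.05 and a median of 0.10 against 0.03 for all probes, of which 0.0% passed and 24 were at that p. Bet1 (0.63), Syx18 (0.64), Cog1 (0.48) and gammaCOP (0.32) had every XBP-1 RNAi array above every control array, 4 of 34 members with full values (11.8%) against 8.51% of all such probes. Syx18 (0.42) was the 1 such member of 36 on the IRE1-labelled arrays, against 1.95% of such probes.

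With DTT a share of the members above the background stood lower in both RNAi arms than in control cells. Under XBP-1 RNAi 10 of 38 were lower (26.3%), against 1.94% of all probes, and 0 higher, against 0.119%. The largest differences were those of Cog6 (-2.12 ± 0.42, adjusted p = 0.00167), Slh (-2.03 ± 0.36, adjusted p = 0.000444), Sec23 (-2.01 ± 0.41, adjusted p = 0.00231) and Grasp65 (-1.98 ± 0.38, adjusted p = 0.00102). Sec22, betaCOP, deltaCOP, Sec24CD, gammaCOP and p115 followed at -1.83 to -1.58. The median of the members was -1.14, against -0.04 for all probes. This comparison uses the same control arrays with DTT as the effect of DTT in control cells.

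On the IRE1-labelled arrays 13 of 38 were lower than control with DTT (34.2%), against 1.7% of all probes, and 0 higher, against 0.409%. Sec23 differed most (-2.33 ± 0.41, adjusted p = 0.000484), followed by Cog6 (-2.21 ± 0.38, adjusted p = 0.000338) and Grasp65 (-2.03 ± 0.38, adjusted p = 0.000882). COPI gave 5 of 8, betaCOP (-1.997), gammaCOP (-1.78), alphaCOP (-1.68), beta'COP (-1.64) and deltaCOP (-1.60). COPII gave 4 of 8, the inner Sec23 and Sec24CD (-1.64) and both cage genes, Sec31 (-1.79) and Sec13 (-1.50), with Slh (-1.93) and p115 (-1.75) as the others. The median of the members was -1.08, against -0.40 for all probes, and after centring -0.64 against 0.01 with 13 members lower (2.2% of all probes). As deposited no cargo receptor passed in either RNAi arm, with medians of -1.16 under XBP-1 RNAi and -0.27 on the IRE1-labelled arrays. Under XBP-1 RNAi 4 of 5 were lower with quantile normalization (4.21% of all probes) and 3 with the letter as a block (3.61%). After centring 1 was lower (3.33%), eca (-0.99, adjusted p = 0.00552). The median on the IRE1-labelled arrays was 0.11 after centring.

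Among members with 3 values in each group, every array under XBP-1 RNAi with DTT lay below every control array with DTT for 22 of 33 (66.7%), against 6.13% of such probes. Among IRE1-labelled arrays this held for 20 of 31 (64.5%), against 18.3%. Replicate A or C of control with DTT carried much of the calls: without either, 5 members passed under XBP-1 RNAi, and 5 and 7 did on the IRE1-labelled arrays. Without replicate B of that group 18 passed under XBP-1 RNAi, and without array A of the IRE1-labelled arrays with DTT 6 passed there. With the letter as a block 19 and 21 members passed (3.61% and 6.3% of all probes), and centring gave 16 under XBP-1 RNAi (3.33%).

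A list of other genes of secretory transport, 68 of them with a probe, was set beside the members. DTT raised 11 of 62 tested in control cells and lowered 0, with a median of 0.42. They were the TRAPP subunit Trs20 (1.84), the Arf GTPase activator ArfGAP3 (1.72), the fusion ATPase Nsf2 (1.59), Golgin97 (1.53), Rab11 (1.45), the GARP subunit scat (1.40), the SNARE Vti1a (1.31), Arf4 (1.31), AP-1gamma of the clathrin adaptor (1.17), Rab18 (1.14) and Rab6 (1.08). Of all probes 7.16% rose there. Under XBP-1 RNAi 3 of 60 rose and 2 fell (4.51% and 11.3% of all probes), and on the IRE1-labelled arrays 2 of 62 rose and 4 fell (3.43% and 10.2%). Golgin97, a trans-Golgi tether, rose in all 3 arms (1.53, 1.35 and 2.12), and gammaSnap1 rose in both RNAi arms (1.29 and 1.21). Arf4, another Arf GTPase, was the 1 gene of 59 whose effect of DTT was smaller under XBP-1 RNAi than in control cells (-2.07 ± 0.52, adjusted p = 0.0418). This held for 0.62% of all probes. With DTT, Arf4 (-1.48 and -1.45) and ArfGAP3 (-1.88 and -1.85) were lower than control in both RNAi arms, the Arf exchange factor garz (-1.59) under XBP-1 RNAi and Trs20 (-1.71) on the IRE1-labelled arrays. Of all probes 1.94% were lower under XBP-1 RNAi and 1.7% on the IRE1-labelled arrays.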

How the data were processed

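RNA of S2 cells was measured on 18 spotted 2-colour arrays. The deposited values are log ratios per probe, read here as log2 of Cy5 sample over Cy3 reference. Per the labels, the authors normalized the ratios with NOMAD, and discarded spots that were defective, less than 1.5-fold over background or had an R2 below 0.5. Log base and numerator are not given in the sources used here. Array medians ran from -0.81 to 0.24, and 18.8% of cells were empty. The number of arrays limits the precision.

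Probe numbers were read as CG numbers and matched to RefSeq Release 6 genes, 6683 by locus tag and 457 by synonym, with 107 matching several genes and 10 none. CG numbers make up 99.9% of the probe numbers but 40.9% of all whole numbers in their range. The platform annotation gives a symbol for 25 members, and for 0 of them is it the gene of that CG number.

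Limma 3.58.1 in R 4.3.3 fitted 6 group means to every probe with at least 2 values in each group compared, and p-values were adjusted by Benjamini-Hochberg over all probes of each of 10 contrasts, with a threshold of 0.05. The procedure was tested on simulated data. Of simulated log2 changes of 1 it recovered 16% for DTT in control cells and 1% for the XBP-1 RNAi difference. Of changes of 2 it recovered 83% and 42%, so a member that did not pass may still have changed. The changes of each size were added to 100 probes with a value on every array, with noise independent between arrays. In the data same-letter arrays deviated together, so these rates need not hold there. Named with every array are members past the threshold in a DTT effect or a difference of such effects, and Rab1, added after its values were seen. Syx18 was counted with the SNAREs. Members and lists were chosen with earlier results of these data known.

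Letters A, B and C were compared as a block. Same-letter arrays of different groups deviated together, with r over 0.1 in 44 of 45 pairs (median 0.436). This r held in every pair of 9 of 10 contrasts. Deviations were taken from group means and cancel within a group. The negative r of other letters (median -0.226) thus follows from the positive one and is not separate evidence. The alternatives were centring, quantile normalization, complete probes, no filter, the block alone and with centring, a variance trend, the contrast's groups alone, and each array left out.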

Additional observations from a re-analysis of the deposited data

Results flagged for a closer look

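In 5 results the effect of DTT differed between an RNAi arm and control cells by a direct test of that difference in limma, with 3 arrays a group and adjustment over all probes. Against control cells, the effect under XBP-1 RNAi differed for the Golgi stacking protein Grasp65 by -2.47 (adjusted p = 0.02), for the COG subunit Cog6 by -2.38 (adjusted p = 0.0332), for the Syx5 partner Slh by -2.32 (adjusted p = 0.0224) and for the coatomer subunit betaCOP by -2.29 (adjusted p = 0.0411). On the arrays labelled IRE1 RNAi the effect differed for Cog6 by -2.43 (adjusted p = 0.0459). Cog6 had 2 values under XBP-1 RNAi with DTT, and betaCOP had 2 under XBP-1 RNAi without DTT. Both comparisons use the same control arrays. Of all probes 0.62% had a smaller effect under XBP-1 RNAi and 0.0358% on the arrays labelled IRE1 RNAi. Of the 5 calls 0 stood in every alternative fit.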

How the results depend on the processing

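No called change of a member turned its direction under any alternative run: of 48 called changes 17 kept their call in every alternative that tested them, and of 677 refitted values 111 lost the call. The counts that follow take both directions together, and each pair of percentages gives the shares of all probes that were higher and lower. In control cells the 11 members called for DTT became 19 with quantile normalization, 18 of them higher (13.8% and 14.5%). They became 19 with the replicate block (11.6% and 7.92%) and 22 with centring and block (17.0% and 17.7%). Under XBP-1 RNAi 7 became 11 with the block (8.66% and 17.6%) and 16 with centring and block (28.9% and 19.9%). Calls over all probes grew in these fits as well. On the IRE1-labelled arrays 2 became 4 with centring (11.1% and 11%) and 4 with quantile normalization (9.41% and 12.3%). They became 9 with the block (5.26% and 16.8%) and 8 with centring and block (17.7% and 15.7%). Against these shares, the 4 counts of this arm do not show a clear excess over the background. With a variance trend 2 became 5, and the shares of all probes with the trend are not given. The difference between XBP-1 RNAi and control went from 4 members to 15 with the block (0.456% and 3.03%). It went to 16 with centring and block (3.03% and 3.72%) and 10 with the trend. In that contrast 17 of 18 same-letter pairs had r over 0.1. The difference between the IRE1-labelled arrays and control went from 1 to 3 with centring (0.787% and 0.322%) and 3 with quantile normalization (0.84% and 0.679%). It went to 2 over complete probes, 0 without the filter and 4 with the trend. It went to 13 with the block (0.536% and 2.16%) and 7 with centring and block (3.0% and 1.72%). With DTT, XBP-1 RNAi against control went from 10 to 16 with centring (0.764% and 3.33%) and 20 with quantile normalization (0.594% and 4.21%). It went to 19 with the block (0.715% and 3.61%) and 21 with centring and block (2.88% and 5.33%). The IRE1-labelled arrays went from 13 to 21 with the block (1.5% and 6.3%). The cause of these moves was not tested.

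With 1 array left out, the counts ran from 5 to 16 in control cells, 3 to 8 under XBP-1 RNAi and 1 to 4 on the IRE1-labelled arrays, with the spread pooled over groups. They ran from 0 to 8 and 0 to 4 for the differences from control, 0 to 0 between the RNAi arms and without DTT, and 5 to 18 and 5 to 15 with DTT. Over all probes, 692, 891 and 793 calls in the 3 arms became 1425, 1889 and 1288 after centring. As deposited, the median level of the members was -0.19 in control without DTT, 0.14 under XBP-1 RNAi without DTT and -0.66 on the IRE1-labelled arrays with DTT, and over all members with a value -0.0067 under XBP-1 RNAi without DTT. Spots near background were removed before deposit, so low signals are not measured.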
